A study of Caenorhabditis elegans with 6 samples.

Results

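The core histone genes of C. elegans were taken as all genes whose name in the tables is his- followed by a number, except his-24, which encodes a linker histone H1. This rule gave 71 members among 20661 genes. RNA was sequenced from mixed-stage cultures grown at 20 °C from the double mutant daf-16(-);daf-2(-) (alleles mgDf50 and e1370), from daf-2(-) (e1370) and from wild-type N2 (WT), with 2 libraries for each strain. The double mutant also carries e1370, so both mutant strains share the lowered signalling through the insulin/IGF-1 receptor DAF-2, and they differ in the deletion of the FOXO transcription factor gene daf-16. The comparisons ask how histone gene expression differed under low insulin/IGF-1 signalling (IIS), and how it differed when DAF-16 was also missing. Nothing in the labels says that the 2 libraries of a strain came from separate cultures, so p-values measure only the spread between these libraries, which may be technical.

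Core histones H2A, H2B, H3 and H4 form the protein core around which DNA is wrapped. Animals make most of their histone mRNA in S phase from clustered, intronless, replication-dependent genes. Those mRNAs end in a stem-loop, bound in the worm by CDL-1, rather than in a poly(A) tail. Another set of genes, often with introns and with polyadenylated mRNAs, supplies histones outside S phase; the H3.3 proteins belong to it, and are placed in chromatin independently of replication. The libraries were made with the TruSeq RNA kit, which selects polyadenylated RNA, and how far this selection set the levels below was not tested.

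Of the 71 members, 17 encode H2A, 16 H2B, 20 H3 and 16 H4, while his-39 and his-73 have only short gene models. In the WBcel235 annotation, 61 members have an intronless coding model and form the intronless genes of this report. The short models and the genes his-69 and his-70 also have 1 exon, but were kept apart from these 61. Another 6 contain introns, namely his-35 (H2A), his-41 (H2B), his-37 (H4) and the H3.3 genes his-71, his-72 and his-74. The neighbours his-69 and his-70 encode H3-like proteins. The members lie on chromosome I (2 genes), II (14), III (3), IV (22), V (27) and X (3), and members less than 100000 bases apart form 15 neighbourhoods. Of the neighbouring members, 31 pairs are divergently transcribed, of which 14 are an H3 and an H4 gene and 16 an H2A and an H2B gene. The genes his-35, his-41 and his-37 sit together on chromosome V, away from the intronless groups.

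The intron-containing genes had the 6 highest mean levels. Their mean RPKM (the deposited unit, which divides the reads of a gene by its exon length and by the mapped reads of the library) over the 6 libraries lay between 93.2 and 303, with a median of 187. The 61 intronless genes lay between 0.253 and 14.5, with a median of 3.08. The lowest intron-containing mean was 6.41-fold the highest intronless mean. No single library broke this order, as the lowest intron-containing value was 54.98 RPKM (his-74) and the highest intronless value 30.2 RPKM (his-48). Among all 20661 genes the intron-containing members ranked between 517 (his-37) and 1556 (his-74), and the first intronless gene, his-38, ranked 7012.

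**Figure D1:**
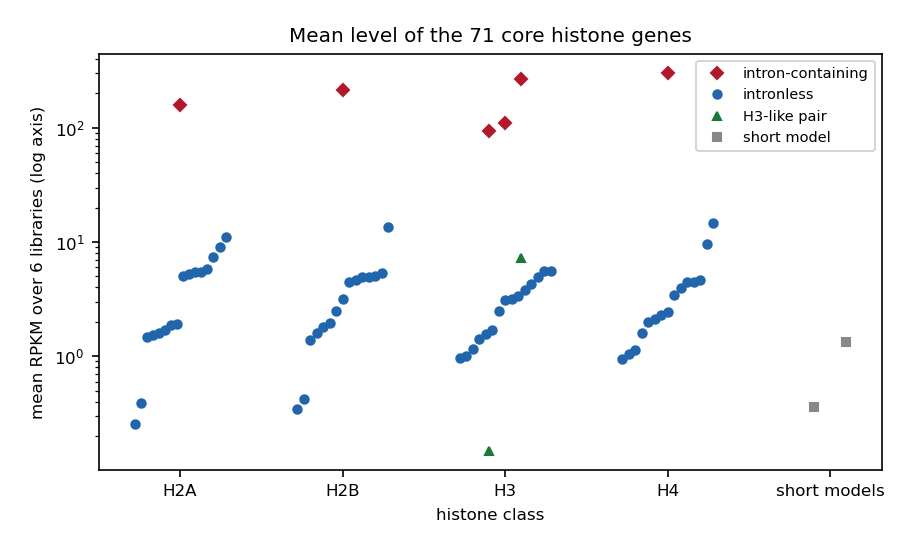
Mean RPKM over the 6 libraries (log axis) for each of the 71 core histone genes, by histone class. Red diamonds are intron-containing genes, blue circles intronless genes, green triangles his-69 and his-70, and grey squares the short models. In each class the intron-containing genes, at 93.2 to 303 RPKM, stand above all intronless genes, at 0.253 to 14.5 RPKM.

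The intronless classes had similar levels. The median of their gene means was 3.49 RPKM for H2A, 3.20 for H2B, 3.08 for H3 and 2.45 for H4. Of the 71 members, 69 were listed in all 3 tables, 65 were above 0 in all 6 libraries and 63 had a mean RPKM of at least 1. The H3-like gene his-69 was absent from the WT table, with at most 0.54 RPKM in the other libraries, and the short model his-39 was absent from the daf-2(-) table. Copies share sequence: 36 intronless genes fall under 14 names in the Ensembl annotation, each held by 2 to 4 copies. How reads that match several copies were assigned is not given in the sources used here, so the values of single copies are uncertain and sums over copies are given beside them.

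Low values of the intronless genes were whole multiples of the RPKM that 1 read would give for the gene's length. With a tolerance of 0.06 read, between 96.2% and 100% of the values under 4 RPKM were whole in each library. The implied number of mapped reads was 13470000 and 15170000 in the double mutant, 14120000 and 9630000 in daf-2(-), and 15650000 and 13500000 in WT. The method fixes the depth only up to a whole factor. Depths were searched within a fixed window, and the depth with the largest share of whole values was kept. At this depth, the median intronless gene had 12 and 14 reads in the double mutant, 10 and 6 in daf-2(-), and 26 and 16 in WT, over 60 genes. Changes of single intronless genes therefore rest on few reads.

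Differences were tested with limma on log2(RPKM + 1) over all genes. A call needed a 2-fold difference or more together with an unadjusted p no higher than 0.05. The added 1 RPKM shrinks the fold changes of genes at low levels, which touches most intronless members. In daf-2(-) against WT, 16 members were called lower and none higher. Over all genes tested, 7.78% were called lower and 4.84% higher. All 16 were intronless, and the 6 intron-containing genes, the H3-like pair and the short models were not called. At limma's Benjamini-Hochberg adjusted p of at most 0.05 with the same fold change, 11 members were lower and none higher, against 7.15% and 4.54% of all genes. Without the fold limit, 28 members had a limma p of at most 0.05 with a negative change and 4 with a positive one. The share of all genes at this p alone was not counted, so these numbers have no background beside them. The median log2 fold change was -0.68 over the members, against -0.11 over all genes tested, and -0.75 over the 63 members with a mean RPKM of at least 1, against -0.28 over all genes of that level. In bulk cultures, fewer cells that express a gene and less RNA per cell cannot be told apart.

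The scaling of the libraries bears on these values. For daf-2(-) against WT, median-ratio scaling brought the median at 1 RPKM or more over all genes to -0.02, against -0.28 in the deposited RPKM, and called 3.43% of all genes lower and 7.85% higher. Under it 11 members remained lower and none was higher. The median of the members was then -0.45. WT replicate 1 had more intronless histone RNA than WT replicate 2. Without WT replicate 1, 9 members were called lower, 7 of them among the 16, and 8.07% of all genes. Without daf-2(-) replicate 2, 9 members were also called lower, 8 of them among the 16, and 3.64% of all genes.

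Levels summed in RPM (RPKM times the exon length of the gene model in kilobases) do not depend on how reads were shared among the copies within a sum. The 61 intronless genes summed to 81.5 and 75.97 RPM in the double mutant, 57.2 and 57.1 in daf-2(-), and 129 and 93.4 in WT. In the deposited values the strains did not overlap, with daf-2(-) lowest and WT highest. The double mutant mean was 1.38 times the daf-2(-) mean, but 1.02 times under median-ratio scaling, where the libraries of these strains overlapped. The daf-2(-) mean was 0.514 times the WT mean (57.1 ± 0.058 and 111 ± 25.03, SD, n = 2 each), and 0.632 times under median-ratio scaling. The 2 daf-2(-) libraries differed by far less than the 2 WT libraries, and WT replicate 2 lay nearer to the double mutant than to WT replicate 1. An exact two-sided permutation test of 2 libraries against 2 cannot give a p below 0.333, so the differences between sums could not be tested at the threshold.

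The classes differed in the size of this gap. H2A genes summed to 14.2 and 14.7 RPM in daf-2(-), against 40.3 and 34.9 in WT, a ratio of 0.385. H2B genes summed to 12.8 and 13.1 in daf-2(-), against 34.5 and 23.6 in WT, a ratio of 0.446. H3 and H4 genes had ratios of 0.674 and 0.662, and under median-ratio scaling their daf-2(-) and WT libraries overlapped. In daf-2(-), 7 of 16 intronless H2A genes, 3 of 15 H2B, 2 of 15 H3 and 4 of 15 H4 genes were called lower than in WT. The difference between the classes was not tested.

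**Figure D2:**
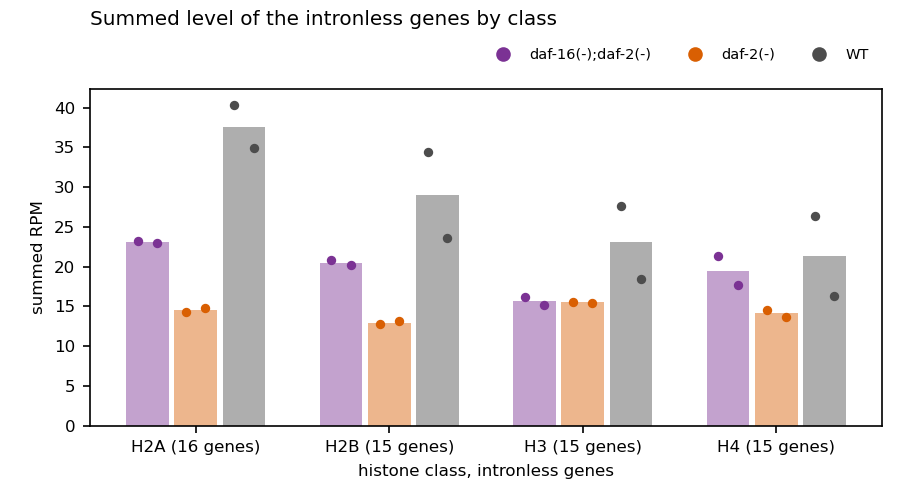
Summed RPM (vertical axis) of the intronless genes of each class, with bars for the mean of 2 libraries and points for the libraries. H2A genes stand at 14.2 and 14.7 in daf-2(-), against 40.3 and 34.9 in WT, and the double mutant lies between them at 23.2 and 23.0.

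The 16 called genes lay in 5 of the 9 neighbourhoods that hold intronless genes. The pair his-67 and his-68 on chromosome I held 2, his-59 to his-62 on IV held 2, and his-5 to his-8 on V held 2. A group of 12 genes on IV held 5 (his-45 to his-48, his-55 to his-58 and his-63 to his-66). A group of 14 genes on V also held 5 (his-17 to his-22, his-27, his-28 and his-49 to his-54). Below, these groups are written as his-45 to his-66 and his-17 to his-54, though they do not hold every number between. The 13 genes on II, 6 on IV (his-29 to his-34), 4 on V (his-1 to his-4) and the pair on X held none. On V, his-7 (H2A) had 4.64 and 5.33 RPKM in the double mutant, 4.43 and 1.62 in daf-2(-), and 16.3 and 12.3 in WT. Its divergent neighbour his-8 (H2B) had 3.0 and 1.77 RPKM in the double mutant, 2.09 and 0.84 in daf-2(-), and 10.5 and 9.94 in WT. For both genes the 4 mutant libraries lay below both WT libraries. In reads, his-8 had an estimated 15 and 10 in the double mutant, 11 and 3 in daf-2(-), and 61 and 50 in WT.

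The log2 fold change in daf-2(-) against WT was -2.23 for his-8 (limma adjusted p = 0.00818, SE 0.33) and -2.01 for his-7 (limma adjusted p = 0.0131, SE 0.37), and both calls held under the 16 alternatives run. The H2A gene his-53 fell by 1.94 (limma adjusted p = 0.0269, SE 0.47), and its call was lost without daf-2(-) replicate 2 and without either WT library. It is one of 4 H2A copies on V under a single Ensembl name, with his-19, his-21 and his-51, and these 4 were all called lower. Their sum was 3.94 and 8.05 RPM in the double mutant, 4.82 and 3.01 in daf-2(-), and 14.4 and 15.6 in WT. The H2B copies beside them, his-20, his-22, his-52 and his-54, summed to 2.28 and 3.11 in the double mutant, 1.43 and 1.20 in daf-2(-), and 3.07 and 3.999 in WT, and none of them was called.

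The most abundant intronless genes did not all move together. The H2B gene his-48 had 12.8 and 13.8 RPKM in the double mutant, 5.71 and 7.54 in daf-2(-), and 30.2 and 10.9 in WT. It was called lower in daf-2(-), with a log2 fold change of -1.35 (limma adjusted p = 0.0565, SE 0.42), and this call was lost under 8 of 16 alternatives, among them leaving out any 1 library other than WT replicate 2. The H2B gene his-62 also fell (-1.11, limma adjusted p = 0.0993), and its call was lost when any 1 of the 6 libraries was left out. The H2A gene his-3 had 12.2 and 5.33 RPKM in the double mutant, 5.53 and 12.7 in daf-2(-), and 10.2 and 8.09 in WT, so its strains overlapped. The H4 gene his-38 on X, the most abundant intronless gene, had 13.6 and 13.96 RPKM in the double mutant, 18.2 and 17.3 in daf-2(-), and 13.3 and 10.9 in WT. Both daf-2(-) libraries lay above the other 4, but the log2 fold change of 0.52 against WT was not called (limma adjusted p = 0.0722, SE 0.18).

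**Figure D3:**
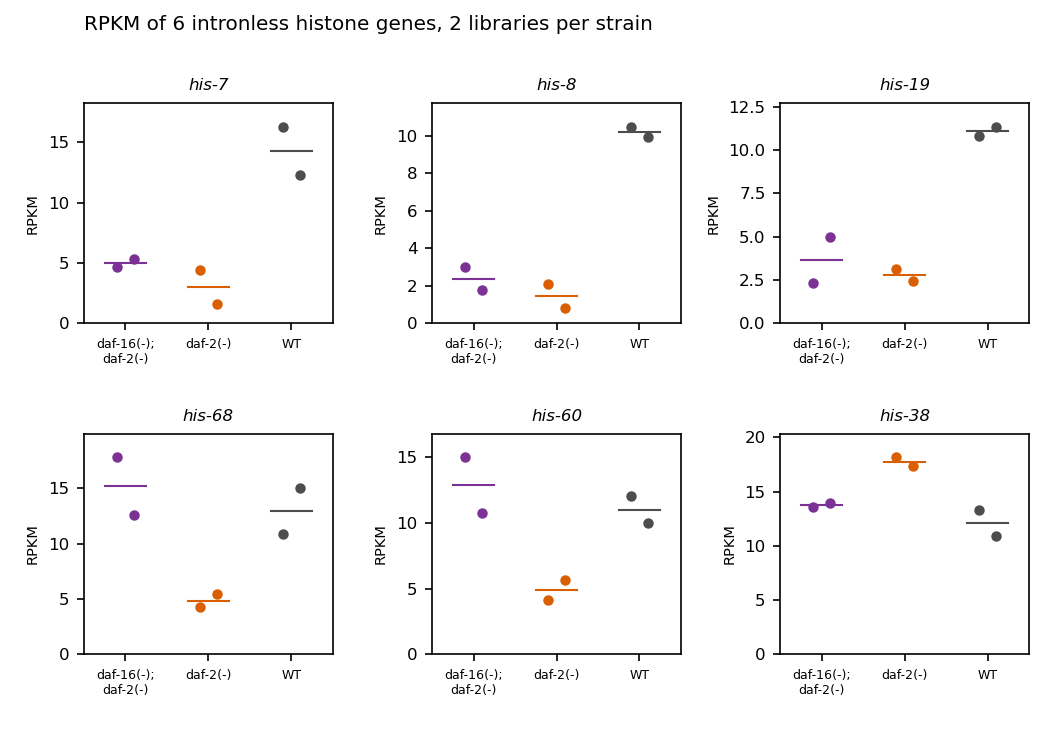
RPKM of 6 intronless histone genes by strain, with points for libraries and lines for the mean of 2. For his-7, his-8 and his-19 all mutant libraries lie below both WT libraries, for his-68 and his-60 only daf-2(-) lies apart, and for his-38 daf-2(-) is highest at 18.2 and 17.3 RPKM.

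The double mutant was compared with daf-2(-) to see which differences went with DAF-16. These comparisons share libraries: daf-2(-) enters both this one and the one above. In the double mutant 4 members were called higher than in daf-2(-) and none lower, and over all genes 15.8% were called higher and 5.65% lower. At the adjusted p the same counts of 4 and 0 stood against 15.5% and 5.46% of all genes. The share of members called higher was thus below that of all genes. Without the fold limit, 10 members had a limma p of at most 0.05 with a positive change and 3 with a negative one. The share of all genes without this limit was not counted. The median log2 fold change was 0.41 over the members, against 0.15 over all genes, and 0.44 over members with a mean RPKM of at least 1, against 0.34 over all genes at that level. Under median-ratio scaling the median over genes at that level was -0.02 and that of the members 0.10, with 1 member called higher and 2 lower. Of all genes, 7.61% were then called higher and 9.98% lower. Without replicate 2 of the double mutant, 8 members were called higher, and 15.8% of all genes. Without daf-2(-) replicate 1, 7 members were called higher, and 18.0% of all genes.

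The member with the largest increase was the H2A gene his-68 on chromosome I. It had 17.8 and 12.5 RPKM in the double mutant, 4.24 and 5.41 in daf-2(-), and 10.8 and 15.0 in WT. The daf-2(-) libraries lay below the other 4. Its log2 fold change was 1.46 (limma adjusted p = 0.00577, SE 0.26) and was called under all 16 alternatives. The H4 gene his-60 on IV had 15.0 and 10.8 RPKM in the double mutant, 4.09 and 5.66 in daf-2(-), and 12.1 and 9.96 in WT, with a log2 fold change of 1.24 (limma adjusted p = 0.0094, SE 0.25). Its call was lost under both median-ratio and quantile scaling. The others called were the H4 gene his-56 (1.09), named here after its values were seen, and his-74, described below. By class, the intronless H2A and H2B sums in the double mutant were 1.59 and 1.58 times those in daf-2(-), and the H3 sum was 1.01 times, at 16.2 and 15.1 RPM in the double mutant, against 15.6 and 15.5 in daf-2(-). The H4 sum was 1.38 times. Under median-ratio scaling the ratios were 1.18 for H2A, 1.17 for H2B, 0.748 for H3, where both double mutant libraries lay below both of daf-2(-), and 1.03 for H4, where the libraries overlapped.

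Against WT, the double mutant had 6 members called lower and none higher, while 0.736% of all genes were called lower and 1.42% higher. None of these passed at limma's adjusted p, where 0.0387% of all genes were lower and 0.116% higher. Without the fold limit, 8 members had a limma p of at most 0.05 with a negative change and 1 with a positive one, and again the share of all genes was not counted. All 6 members called lower were intronless: his-7, his-8, his-19, his-53 and, named after their values were seen, his-21 and his-57. All but his-57 lie in the groups on V described above. The log2 fold change of his-8 was -1.75 (limma adjusted p = 0.14, SE 0.33), that of his-19 -1.44 (limma adjusted p = 0.168, SE 0.32) and that of his-7 -1.35 (limma adjusted p = 0.185, SE 0.37). The his-19 gene had 2.32 and 4.98 RPKM in the double mutant, 3.14 and 2.44 in daf-2(-), and 10.8 and 11.4 in WT. The median over the members was -0.26, against 0.05 over all genes, and it was -0.051 without WT replicate 1 and -0.45 without WT replicate 2. Fewer members were called lower without WT replicate 1 or without replicate 1 of the double mutant, where 1 compared strain held a single library. Leaving out either daf-2(-) library also lowered the count, though the compared strains then kept all their libraries. More members were called lower without WT replicate 2. The share of all genes called lower rose without WT replicate 1 and fell in the other cases. Without replicate 1 of the double mutant the median over the members was -0.315, against 0.084 over all genes.

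**Figure D4:**
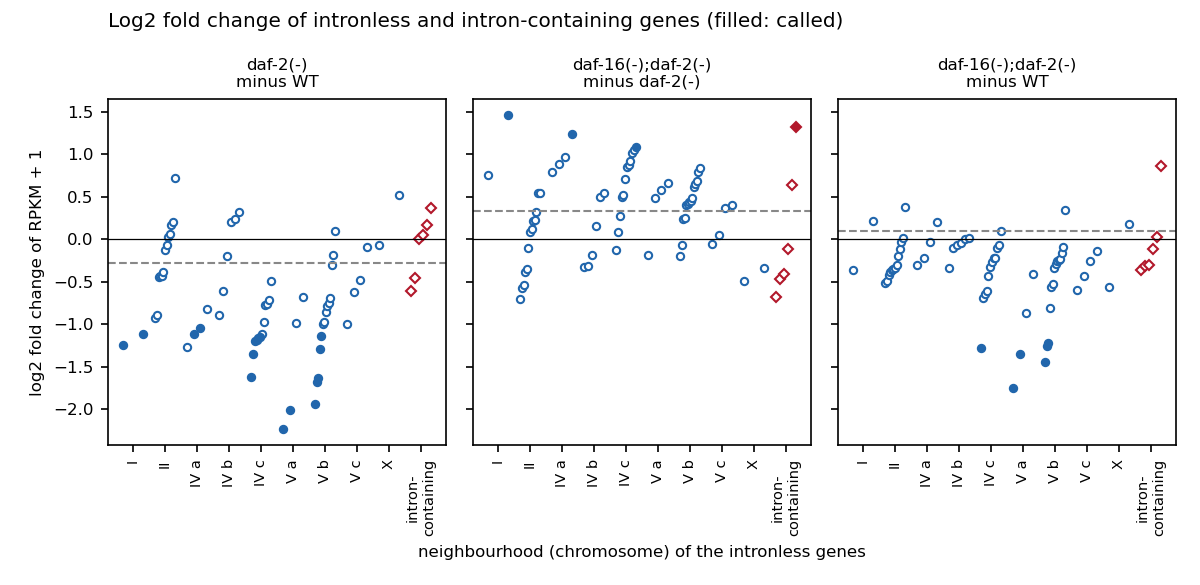
Log2 fold change of RPKM + 1 for each intronless gene by neighbourhood and for the 6 intron-containing genes (diamonds). Neighbourhoods carry the chromosome number, with letters where a chromosome has several. IV a is his-59 to his-62, IV b his-29 to his-34, V a his-5 to his-8 and V c his-1 to his-4. IV c is his-45 to his-48, his-55 to his-58 and his-63 to his-66. V b is his-17 to his-22, his-27, his-28 and his-49 to his-54. Filled symbols were called and the dashed line is the median over all genes that averaged 1 RPKM or more. In daf-2(-) minus WT the 16 filled circles lie at or below -1.04, in 5 of the 9 neighbourhoods.

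Summed over neighbourhoods, the levels did not follow a single pattern across strains. The 4 intronless genes his-5 to his-8 gave 4.68 and 4.95 RPM in the double mutant, 4.39 and 2.39 in daf-2(-), and 13.5 and 11.8 in WT. The 14 genes from his-17 to his-54 gave 8.59 and 14.3 in the double mutant, 7.95 and 5.98 in daf-2(-), and 21.8 and 22.3 in WT. In both groups all 4 mutant libraries lay below both WT libraries. In the second group, the 4 H2A copies his-19, his-21, his-51 and his-53 made up 14.4 and 15.6 RPM in WT. The pair his-67 and his-68 gave 7.73 and 5.28 in the double mutant, 1.84 and 2.39 in daf-2(-), and 5.31 and 6.51 in WT, and his-59 to his-62 gave 13.7 and 8.78 in the double mutant, 3.40 and 6.76 in daf-2(-), and 13.99 and 9.54 in WT. In these, only daf-2(-) lay below WT. The 12 genes from his-45 to his-66 gave 15.9 and 12.9 in the double mutant, 5.73 and 7.996 in daf-2(-), and 31.7 and 12.3 in WT, where the WT libraries were themselves far apart. The 13 genes on II, with 14.9 and 17.0 in the double mutant, 19.9 and 15.2 in daf-2(-), and 23.8 and 16.6 in WT, overlapped between all strains. So did his-1 to his-4 on V. For his-29 to his-34 on IV, daf-2(-) (1.49 and 2.07) lay below WT (3.58 and 2.37), and the double mutant overlapped both. The sum of the pair on X went the other way, with 5.65 and 6.275 in the double mutant, 8.51 and 7.59 in daf-2(-), and 7.10 and 5.775 in WT. Against WT this came from his-38. For his-40, named here after its values were seen, daf-2(-) (6.91 and 5.32 RPKM) overlapped WT (7.17 and 5.77 RPKM). These groups were set apart after their values were seen, and the difference between neighbourhoods was not tested.

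The intron-containing genes summed to 572 and 644 RPM in the double mutant, 593 and 579 in daf-2(-), and 613 and 650 in WT, using WBcel235 exon lengths. The ratio of daf-2(-) to WT was 0.928, and 1.15 under median-ratio scaling, so that its direction turned with the scaling. The sum hides unlike genes. The H3.3 gene his-72 had 290 and 324 RPKM in the double mutant, 203 and 192 in daf-2(-), and 271 and 334 in WT. The daf-2(-) libraries were lowest, with a log2 fold change of -0.61 against WT (limma adjusted p = 0.0292, SE 0.15) and 0.63 in the double mutant against daf-2(-) (limma adjusted p = 0.0169, SE 0.15), both short of the fold limit. Under median-ratio scaling these became -0.31 (limma adjusted p = 0.17) and 0.21 (limma adjusted p = 0.329).

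The H3.3 gene his-71 had the opposite order. It had 79.5 and 92.5 RPKM in the double mutant, 130 and 147 in daf-2(-), and 108 and 105 in WT, and the 3 strains did not overlap. Its log2 fold change was 0.37 in daf-2(-) against WT (limma adjusted p = 0.0958, SE 0.14) and -0.68 in the double mutant against daf-2(-) (limma adjusted p = 0.00957, SE 0.14), not called in the deposited RPKM and called lower with median-ratio scaling (-1.10). The third H3.3 gene, his-74, had 166 and 123 RPKM in the double mutant, 54.98 and 58.7 in daf-2(-), and 71.8 and 84.95 in WT. It was called higher in the double mutant than in daf-2(-), at 1.32 (limma adjusted p = 0.00252, SE 0.18), a call lost with median-ratio scaling (0.89). Against WT its change of 0.86 was not called (limma adjusted p = 0.163, SE 0.18).

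A ratio of 2 genes within a library is unchanged when the whole library is scaled by a single factor, as in median-ratio scaling, though not under quantile normalization. The ratio of his-72 to his-71 in RPKM was 3.65 and 3.5 in the double mutant, 1.57 and 1.30 in daf-2(-), and 2.51 and 3.17 in WT. The ratio of his-74 to his-71 was 2.09 and 1.33 in the double mutant, 0.424 and 0.399 in daf-2(-), and 0.666 and 0.806 in WT. In both of these ratios daf-2(-) was lowest, the double mutant highest, and no strain overlapped another. The ratio of his-74 to his-72 was 0.572 and 0.38 in the double mutant, 0.271 and 0.306 in daf-2(-), and 0.265 and 0.254 in WT, so here WT was lowest. Of the summed RPKM of the 3 genes, his-71 took 14.8% and 17.1% in the double mutant, 33.4% and 36.98% in daf-2(-), and 23.9% and 20.1% in WT. These ratios were chosen after the values were seen and have no test, and the 3 genes encode similar proteins, so reads between them may have been shared.

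**Figure D5:**
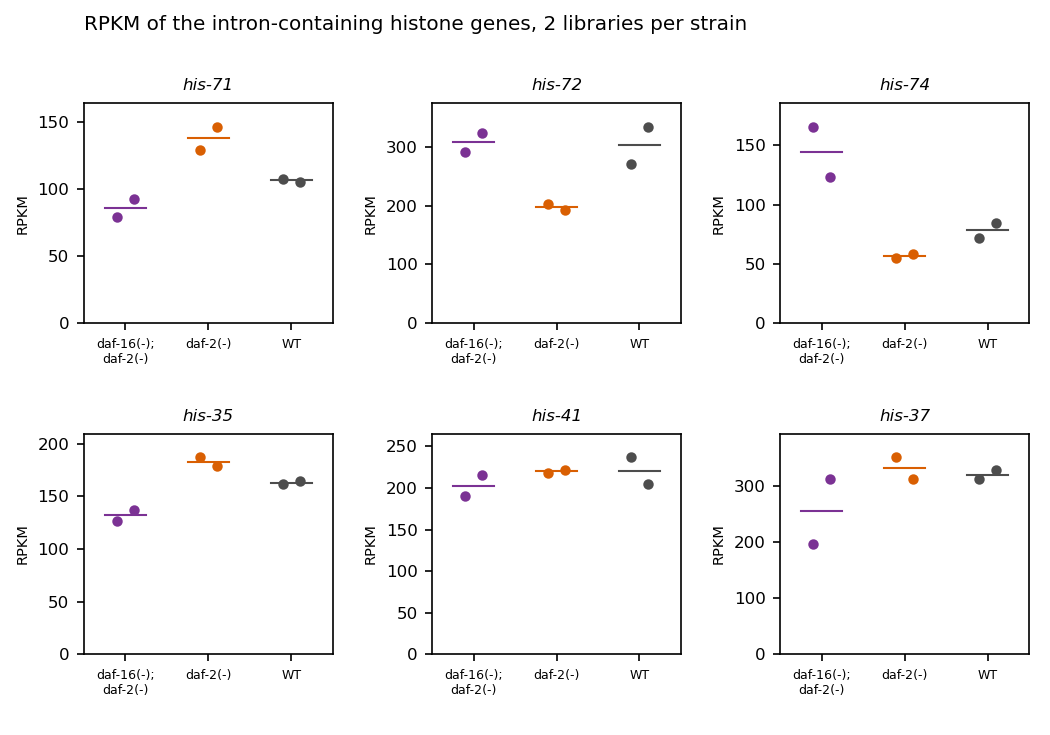
RPKM of the 6 intron-containing histone genes by strain, with points for libraries and lines for the mean of 2. In daf-2(-), his-71 is highest (130 and 147) while his-72 (203 and 192) and his-74 (54.98 and 58.7) are lowest. For his-37 the strains overlap, and for his-41 WT overlaps both mutant strains, while the double mutant lies below daf-2(-).

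The other intron-containing genes were not called in any comparison of the deposited values. The H2A gene his-35 had 126 and 137 RPKM in the double mutant, 187 and 178 in daf-2(-), and 162 and 164 in WT, with a log2 fold change of -0.47 in the double mutant against daf-2(-) (limma adjusted p = 0.0238, SE 0.12), short of the fold limit. The H2B gene his-41 lay between 191 and 237 RPKM in all 6 libraries. The H4 gene his-37 had 197 and 313 RPKM in the double mutant, 351 and 313 in daf-2(-), and 313 and 329 in WT, so replicate 1 of the double mutant alone stood low. The H3-like gene his-70 had 9.17 and 8.47 RPKM in the double mutant, 6.30 and 6.16 in daf-2(-), and 7.89 and 5.30 in WT, and was not called in any comparison. The short model his-73 had 3.19 and 0.83 RPKM in the double mutant, 0.89 and 2.10 in daf-2(-), and 0.48 and 0.56 in WT, also not called.

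Genes that work with histones were taken from lists. Over all genes, 7.78% were called lower and 4.84% higher in daf-2(-) than in WT. In the double mutant against daf-2(-), 15.8% of all genes were called higher. In daf-2(-) against WT, 12251 of 20661 genes had a negative change, as did 9212 of the 14395 averaging 1 RPKM or more. Of 12 measured genes of histone supply and deposition, 7 were called lower in daf-2(-) than in WT and none higher. All 12 were called higher in the double mutant than in daf-2(-), and the median log2 fold changes were -1.03 and 1.55. Without the call limits, all 12 genes had a negative change in daf-2(-) against WT. One of them, cdl-1, which encodes the stem-loop binding protein, had 114 and 105 RPKM in the double mutant, 31.2 and 25.6 in daf-2(-), and 59.8 and 86.2 in WT. Its log2 fold change was -1.31 in daf-2(-) against WT (limma adjusted p = 0.00916) and 1.91 in the double mutant against daf-2(-) (limma adjusted p = 0.00165). Of 25 DNA replication genes, 17 were called lower in daf-2(-) than in WT and all 25 called higher in the double mutant than in daf-2(-). In daf-2(-) against WT, 24 of them had a negative change and 1 a positive one. The 25 genes summed to 2212 and 2120 RPKM in the double mutant, 747 and 639 in daf-2(-), and 1314 and 1730 in WT. Both double mutant libraries thus stood above both WT libraries for DNA replication genes and below them for the intronless histone genes. The 4 other histone variant genes were his-24, the H2A.Z gene htz-1 and the centromeric H3 genes hcp-3 and cpar-1. Of these, 1 was called lower in daf-2(-) than in WT and 3 were called higher in the double mutant than in daf-2(-). For all 4, both daf-2(-) libraries lay below both WT libraries. The same held for 8765 of all 20661 genes, and for 7433 of the 14395 averaging 1 RPKM or more.

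Markers of the germ line and of stage moved with the strains too, and their part in the histone values was not tested. Beside the counts below stand 7.78% of all genes called lower and 4.84% higher in daf-2(-) than in WT. In the double mutant, 15.8% of all genes were called higher than in daf-2(-). Of 20661 genes, 12251 had a negative and 8036 a positive change in daf-2(-) against WT. The 16 germline genes summed to 1979 and 1403 RPKM in the double mutant, 490 and 398 in daf-2(-), and 948 and 942 in WT. Of these, 4 were called lower in daf-2(-) than in WT, and all 16 had a negative change. All 14 measured oocyte and early embryo genes were called in daf-2(-), lower against WT, and in the double mutant, higher against daf-2(-), with sums of 2937 and 2352 RPKM in the double mutant, 596 and 466 in daf-2(-), and 1336 and 1568 in WT. Of 9 genes of moulting larvae, 6 were called lower in daf-2(-) than in WT, and all 9 had a negative change. Their sums were 293 and 222 RPKM in daf-2(-), against 690 and 519 in WT. Against WT, 1 of 17 sperm genes was called higher in daf-2(-) and none lower, with 13 positive and 4 negative changes. In the same comparison, 1 of 6 adult genes was called higher and none lower, with 3 positive and 3 negative changes. No list held a gene at 0 in all libraries. The double mutant had 6.44 and 4.60 RPKM of daf-16, against 25.2 and 22.4 in daf-2(-) and 24.9 and 29.4 in WT. A table gives 1 value per gene, so reads outside the deletion are not separated.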

How the data were processed

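RNA-seq of 6 libraries (2 per strain) was used. Per the labels and methods, the authors selected RNA of high integrity, made TruSeq RNA libraries, ran base calling with CASAVA 1.8.2, aligned reads to WS230 in CLC Genomics Workbench with default parameters and deposited RPKM per gene in 1 table per strain. Handling of multiply matching reads and use of strand are not given in the sources used here. RPKM keeps no counts, so no count model was run, and the authors' own test, which needs counts, was not run.

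Digit-group commas were removed, the 3 tables were joined by gene name, a gene absent from a table was set to 0, and 6 names on more than 1 line were left out. RPKM were tested with limma 3.58.1 in R 4.3.3 on log2(RPKM + 1), in 1 fit of 20661 genes over the 6 libraries with a mean-variance trend (3.86 prior degrees of freedom) and Benjamini-Hochberg adjustment over all genes. The fit was tested on simulated data. The class of each histone gene was set from the coding length in WBcel235 and general knowledge, not from a protein sequence. Gene names were matched to WBcel235 for all 71 members, and positions were not carried between the builds.

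Members named in the text are his-35 and his-69 to his-74, the 3 most abundant genes of each class, and up to 3 called members per direction and comparison with a mean RPKM of at least 1. The members, the lists and these rules were chosen with earlier results of these data known. The tolerance and RPKM limit for whole reads were set after the values, and the authors' supplementary read numbers, had been seen. Alternatives were other pseudocounts, dropping low or unlisted genes, scaling by median ratio or quantiles, adjusted p-values, limma without the trend, a fit per pair of strains, a replicate block and each library left out. Scaled and left-out sums were added after seeing the data.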

Additional observations from a re-analysis of the deposited data

How the results depend on the processing

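Members called lower in daf-2(-) than in WT numbered 16 in the deposited RPKM, 26 with a pseudocount of 0.1 RPKM (1 then higher) and 9 to 21 with 1 library left out, while 7.78%, 13.9% and 3.64% to 11.6% of all genes were. The median log2 fold change of -0.68 became -0.98 with that pseudocount, -0.45 with median-ratio scaling and -0.72 to -0.48 with 1 library left out. In the double mutant against daf-2(-), the 4 called higher became 10 with a pseudocount of 0.1 RPKM, 1 (and 2 lower) under median-ratio and 2 under quantile scaling, and 3 to 8 with 1 library left out, and the median of 0.41 became 0.53 and 0.47 with pseudocounts of 0.1 and 0.5 RPKM, 0.096 under median-ratio and 0.18 under quantile scaling, and 0.20 to 0.41 with 1 library left out. Of all genes, 15.8% were called higher than in daf-2(-) in the deposited RPKM and 21.6% with a pseudocount of 0.1 RPKM. Under median-ratio scaling 7.61% of all genes were called higher and 9.98% lower, and under quantile scaling 8.17% higher. Under each of these settings the share of members called higher was below that of all genes. In the double mutant against WT, the 6 called lower became 0 at the adjusted p, against 0.736% and 0.0387% of all genes. Some of the 6 calls were lost whichever library was left out, and most were lost without WT replicate 1 or replicate 1 of the double mutant. The median of -0.26 became -0.45 to -0.051 with 1 library left out. Few reads per intronless gene and 2 libraries per strain limit all of these, and why a setting changed a count was not tested beyond the smaller number of libraries. Of the 19 named members no called change took the other sign.

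The replicate numbers are not stated to pair libraries. With the number as a replicate block, 17 members were called lower in daf-2(-) than in WT, 4 higher in the double mutant than in daf-2(-) and 6 lower in the double mutant than in WT. Of all genes, 7.79%, 15.8% and 0.765% were called in these directions. The differences between replicates 1 and 2 correlated at -0.163 between the double mutant and daf-2(-), 0.158 between the double mutant and WT, and 0.109 between daf-2(-) and WT, across 14395 genes.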
